A study of Mus musculus with 12 samples.

Results

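Chromatin accessibility was described at the genes that encode the subunits of the mouse SWI/SNF (BAF) chromatin-remodeling complexes, in brown and inguinal fat of mice that lack the BAF60a subunit in adipocytes. BAF60a is the product of Smarcd1. The members were all ATAC-seq peaks whose assigned gene symbol was 1 of 33 listed symbols, which stand for 31 genes because Gltscr1 and Gltscr1l are older names of Bicra and Bicral. They comprised 151 of 58558 peaks in brown fat, under 29 of the symbols, and 89 of 39558 peaks in inguinal fat, under 28. ATAC-seq uses a transposase that cuts and tags accessible DNA, and more reads in a peak stand for a more open site. The question was whether the genes of the remaining subunits, and above all the BAF60a paralogs Smarcd2 and Smarcd3, differed in accessibility between genotypes.

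All mice were C57BL/6 and carried floxed BAF60a alleles. The flox animals were flox/flox littermate controls without Cre, and the AKO animals also carried Adiponectin-Cre, which deletes BAF60a in adipocytes but not in the vessels, immune cells and stromal cells of the same tissue. Brown fat (BAT) came from 3 mice of each genotype, 1 mouse per sample, with no age or housing temperature stated for this assay. Inguinal white fat (iWAT) came from mice 6 to 8 months old that had been acclimated to cold, in a chamber brought down to 10 °C and held there for 7 days. For each genotype the fat of 6 such mice was pooled and divided into 3 aliquots, so that a p-value in iWAT compares 2 pools and measures only the spread between aliquots. Values are normalized reads, meaning reads per peak after scaling each sample by its size factor, and the replicates are given in the order 1, 2 and 3. Reads in peaks ranged from 6336670 to 27500738 in BAT and from 4066720 to 6691161 in iWAT. In whole tissue, fewer adipocytes and less open chromatin per adipocyte cannot be told apart. The marker genes of adipocytes had peaks in both tissues for all 9 genes of the list and those of brown adipocytes for all 8. In BAT the summed reads at 84 brown adipocyte marker peaks were 24455 to 28780 in flox and 17277 to 19154 in AKO samples. At an unadjusted p under 0.05, 31 of these peaks were lower and 0 higher in AKO, against 5.59% and 3.46% of all BAT peaks. The part of these marker peaks in the subunit results below was not tested.

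SWI/SNF complexes use the energy of ATP to slide or eject nucleosomes. Each holds 1 of the alternative ATPases BRM (Smarca2) and BRG1 (Smarca4) and 1 of the BAF60 proteins, which link the complex to transcription factors. Canonical BAF (cBAF) is marked by ARID1 and DPF proteins, PBAF by ARID2, PBRM1, BRD7 and PHF10, and the non-canonical complex (ncBAF) by BRD9 and BICRA or BICRAL. Many subunits belong to small paralog families, and in several of them 1 paralog can take the place of another in the complex.

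The sequences under the results are shown first. Those of the BAF60 promoters are given for the deleted gene and its paralogs, that of Smarcd2 at an inner start rather than its main one. The remaining 3 lie in BAT peaks with the smallest p in each direction and the iWAT peak with the smallest p among lower ones. All are GRCm38 (mm10) and run 5′ to 3′. Promoters are those of RefSeq, from 250 bases before to 50 after the start, on the strand of the gene. Capitals in them mark matches to a GC box (GGGCGG), the core of a YY1 motif (AAGATGG) or a TATA box (TATAAA) on either strand.
Smarcd1 promoter, chr15:99702037-99702336, plus strand: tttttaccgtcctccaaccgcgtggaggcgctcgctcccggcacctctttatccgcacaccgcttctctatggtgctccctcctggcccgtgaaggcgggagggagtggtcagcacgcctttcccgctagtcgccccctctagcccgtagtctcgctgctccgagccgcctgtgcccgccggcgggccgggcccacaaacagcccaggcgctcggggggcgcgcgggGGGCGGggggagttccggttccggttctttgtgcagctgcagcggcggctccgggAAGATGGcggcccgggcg
Smarcd2 promoter, chr11:106267583-106267882, minus strand: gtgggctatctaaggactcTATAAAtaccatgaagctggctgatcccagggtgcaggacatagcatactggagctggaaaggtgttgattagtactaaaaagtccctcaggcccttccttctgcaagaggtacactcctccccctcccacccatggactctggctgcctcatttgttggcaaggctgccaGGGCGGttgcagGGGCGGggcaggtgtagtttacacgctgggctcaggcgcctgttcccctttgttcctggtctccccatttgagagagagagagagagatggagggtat
Smarcd3 promoter, chr5:24601953-24602252, minus strand: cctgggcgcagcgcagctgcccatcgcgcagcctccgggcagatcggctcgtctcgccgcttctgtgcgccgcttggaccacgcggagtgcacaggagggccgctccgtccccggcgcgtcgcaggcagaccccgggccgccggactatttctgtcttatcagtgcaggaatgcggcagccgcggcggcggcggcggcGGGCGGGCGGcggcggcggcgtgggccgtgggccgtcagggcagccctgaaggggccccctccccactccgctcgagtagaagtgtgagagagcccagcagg
In the central 300 bases of the Smarcd1 peak within the gene, capitals mark exon 5, chr15:99704331-99704453, which is 123 bases long.
Smarcd1 exon 5 peak, chr15:99704167-99704466, plus strand: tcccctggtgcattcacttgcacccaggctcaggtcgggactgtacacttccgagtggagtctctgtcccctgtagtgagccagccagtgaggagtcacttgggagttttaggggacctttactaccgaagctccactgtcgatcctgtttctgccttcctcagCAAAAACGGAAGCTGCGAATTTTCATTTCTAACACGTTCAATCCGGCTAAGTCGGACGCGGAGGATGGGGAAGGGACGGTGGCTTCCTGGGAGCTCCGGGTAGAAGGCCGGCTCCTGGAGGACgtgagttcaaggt
In the peaks of Bcl11a, of which the central 300 bases are given, and of Dpf1, given whole, no motif searched was found.
Bcl11a peak, chr11:24080921-24081220, plus strand: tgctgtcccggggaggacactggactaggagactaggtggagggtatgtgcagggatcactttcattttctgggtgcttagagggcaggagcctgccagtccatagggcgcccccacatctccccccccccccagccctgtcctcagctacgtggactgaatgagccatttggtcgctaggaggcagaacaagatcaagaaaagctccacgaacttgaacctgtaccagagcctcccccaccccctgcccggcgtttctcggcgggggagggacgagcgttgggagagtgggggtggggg
Dpf1 peak, chr7:29354294-29354480, plus strand: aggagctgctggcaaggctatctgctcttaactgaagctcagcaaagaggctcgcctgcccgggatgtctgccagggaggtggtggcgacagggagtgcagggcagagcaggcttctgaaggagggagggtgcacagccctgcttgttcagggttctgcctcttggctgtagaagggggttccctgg

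The motifs searched, on both strands, were the 3 above and an ETS motif (CCGGAAG), an E-box (CACGTG), the box named after its letters CCAAT, a cyclic AMP response element (TGACGTCA) and an AP-1 motif (TGAGTCA). RefSeq held 26 promoters for 24 of the subunit genes. Their median GC content was 68.8%, against 52.7% over all 32851 promoters and 62.0% over the 13643 that lay under a BAT peak. A GC box was present in 24 of the 26, while 35.7% of all promoters and 65.9% of those under a BAT peak held 1. The YY1 core was found in 2 subunit promoters, among them that of Smarcd1, and in 6.34% of all promoters. The TATA box was found in 2 subunit promoters, among them that of Smarcd2, and in 13.6% of all promoters. The Smarcd2 entry lies at a start inside the gene, has a GC content of 55% and a ratio of observed to expected CpG of 0.177, whereas the entries for Smarcd1 and Smarcd3 have 71.3% and 74.7% GC and ratios of 0.917 and 0.959. These matches describe the letters in the window and were not tested for binding.

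The BAF60 genes were examined first, since Smarcd1 is the targeted gene. Smarcd1 (ENSMUSG00000023018.5, chr15:99702129-99713991, plus strand) had 2 peaks in BAT. The peak over exon 5, chr15:99704113-99704521, has its midpoint in intron 4, 2188 bp downstream of the start site, inside both Smarcd1 and the overlapping gene Gm17349. It held 136, 201 and 185 normalized reads in the flox mice and 23.7, 57.9 and 26.9 in the AKO mice, or 174 ± 33.9 against 36.2 ± 18.9 (SD, n = 3 each). Every AKO mouse lay below every flox mouse, and the mean of the AKO mice was 20.8% of that of the flox mice. The log2 fold change was -2.98 ± 0.27 (SE) in limma, with the first principal component (PC1) of the samples as a covariate, and -2.33 without it. Its p was the smallest of the 151 subunit peaks, and its adjusted p of 0.269 did not pass the threshold of 0.1. That value equaled the smallest adjusted p over all BAT peaks. Peaks can share an adjusted p, so this does not make its p the smallest of all BAT peaks. The other tests called it lower, with adjusted p-values of 4.04e-11 in DESeq2, 0.00178 in edgeR's quasi-likelihood test and 0.00124 in limma with an intensity trend. DESeq2 with each mouse left out in turn kept the call in 4 of 6 fits and gave no adjusted p without flox replicate 1 or flox replicate 2. The sources used here do not state which exons the loxP sites flank, and whether the deleted segment covers this peak was not tested. No iWAT peak was assigned to Smarcd1 at this place.

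The start site of Smarcd1 did not share this difference. The peak over exon 1, chr15:99701935-99702679, held 485, 456 and 369 normalized reads in flox samples and 412, 417 and 497 in AKO BAT. The groups overlapped, with a log2 fold change of 0.19 ± 0.20 and a 95% interval from -0.28 to 0.67. In iWAT the start-site peak, chr15:99701935-99702768, held 249, 188 and 211 normalized reads in flox samples and 233, 229 and 230 in AKO aliquots, a log2 fold change of 0.11 ± 0.15. The promoter of the targeted gene was open in both genotypes and both tissues, with differences no larger than their standard errors.

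Smarcd2, which encodes BAF60b (ENSMUSG00000078619.10, chr11:106263179-106272972, minus strand), had 2 peaks in each tissue. The peak over its main start site, chr11:106272342-106273349, held 1227, 1071 and 918 normalized reads in flox samples and 1006, 769 and 1083 in AKO BAT. Its log2 fold change of 0.15 ± 0.18 had a 95% interval from -0.27 to 0.56 and became -0.18 when PC1 was left out, so that no direction can be given. The peak at the inner start, chr11:106267363-106268677, where the RefSeq promoter above lies, held 534, 483 and 555 normalized reads in flox samples and 430, 512 and 562 in AKO BAT, a log2 fold change of -0.13 ± 0.21. In iWAT the main start-site peak, chr11:106272348-106273312, held 570, 583 and 524 normalized reads in flox samples and 468, 517 and 558 in AKO aliquots, a log2 fold change of -0.12 ± 0.13 with an interval from -0.44 to 0.19. The inner peak, chr11:106268350-106268679, held 105, 120 and 121 against 122, 112 and 110. Genotypes overlapped at all 4 Smarcd2 peaks.

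Smarcd3, which encodes BAF60c, the form known for its part in heart and skeletal muscle (ENSMUSG00000028949.13, chr5:24590818-24624411, minus strand), had 2 peaks in BAT and 3 in iWAT. The BAT start-site peak, chr5:24601919-24603359, held 1154, 975 and 1044 in the flox mice and 811, 693 and 993 in the AKO mice, a log2 fold change of -0.16 ± 0.21 with an interval from -0.65 to 0.33. Without PC1 the value was -0.36. A peak 2.7 kb upstream, chr5:24604362-24605146, held 636, 554 and 497 against 513, 400 and 564, and its log2 fold change changed sign from 0.10 with PC1 to -0.20 without. In iWAT the start-site peak, chr5:24601945-24603307, held 386, 331 and 368 normalized reads in flox samples and 357, 370 and 387 in AKO aliquots, a log2 fold change of 0.04 ± 0.13. The upstream peak, chr5:24604572-24605125, held 247, 247 and 214 against 258, 267 and 278, so that every AKO aliquot lay above every flox aliquot, with a log2 fold change of 0.18 ± 0.13 and a limma p of 0.2 before adjustment. A peak from intron 2 into exon 3, chr5:24596668-24597634, held 108, 111 and 135 against 71.5, 99.3 and 108, a log2 fold change of -0.36 ± 0.19.

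Neither paralog passed the threshold in limma, DESeq2, edgeR or limma with a trend at any of its peaks in either tissue. The upper ends of the 95% intervals at their main start sites were 0.56 for Smarcd2 and 0.33 for Smarcd3 in BAT and 0.19 and 0.34 in iWAT, and moderate differences in either direction lie within these intervals. Per kilobase of peak, the start sites of flox BAT held 1064 ± 153 normalized reads at Smarcd2, 734 ± 62.6 at Smarcd3 and 586 ± 81.2 at Smarcd1 (SD, n = 3). The lowest of the 3 flox mice at Smarcd2, 911, lay above the highest at Smarcd3, 801, while Smarcd3 and Smarcd1 were separated by less, 677 against 651. In flox iWAT the levels per kilobase were 579 ± 31.9 at Smarcd2, 265 ± 20.4 at Smarcd3 and 259 ± 36.9 at Smarcd1, of which the latter 2 overlapped.

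**Figure D1:**
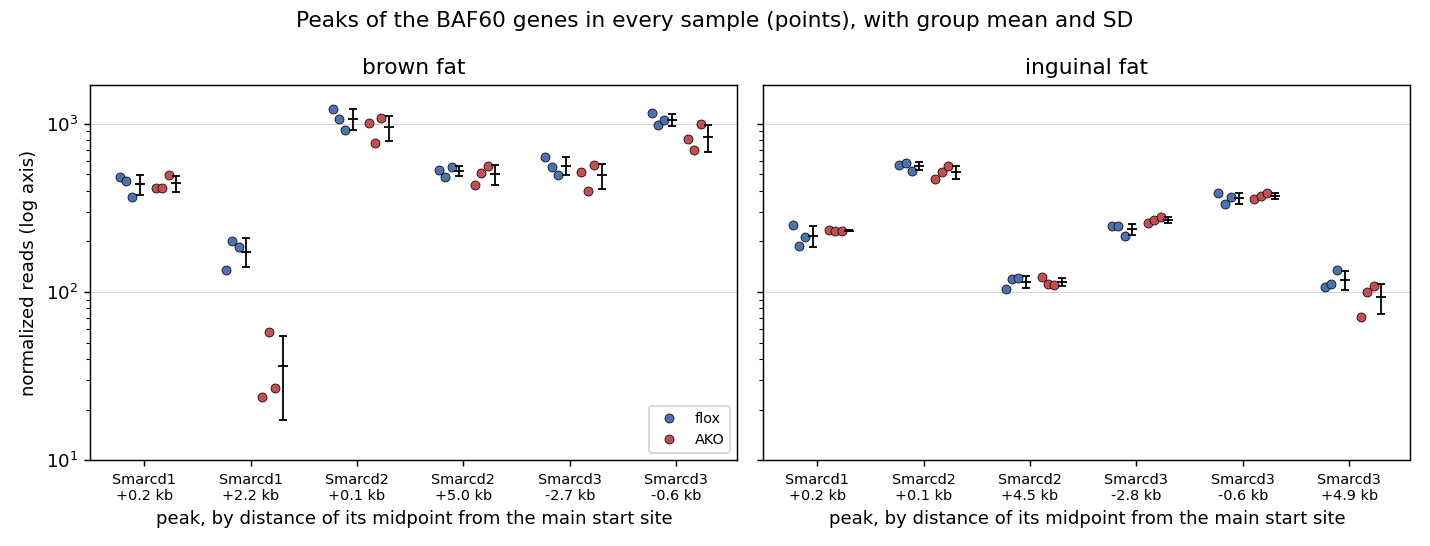
Normalized reads (log axis) at every peak assigned to Smarcd1, Smarcd2 and Smarcd3, with flox samples in blue, AKO samples in red and bars for the mean and SD of 3 samples. The genotypes are clear of each other at the Smarcd1 peak 2.2 kb from the start in BAT and, by a small margin, at the Smarcd3 peak 2.8 kb upstream in iWAT, and overlap at the other peaks.

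Over all subunit genes, limma called 0 of 151 BAT peaks and 0 of 89 iWAT peaks at an adjusted p under 0.1, where it called 0% of all peaks in either direction. At an unadjusted p under 0.05, 6 subunit peaks were lower and 4 higher in AKO BAT, against 5.59% and 3.46% of all BAT peaks. In iWAT 8 were lower and 7 higher, against 7.42% and 7.61% of all iWAT peaks. Genotypes did not overlap at 7 lower and 14 higher BAT subunit peaks, where 8.84% and 8.77% of all peaks behaved so, and at 11 lower and 12 higher iWAT subunit peaks, where 10.3% and 10.6% did. Without PC1, 3 BAT subunit peaks were lower and 11 higher at an unadjusted p under 0.05, against 4.37% and 7.57% of all peaks. These counts correspond to 4.64% lower and 9.27% higher non-overlapping subunit peaks in BAT, the former below the share of all peaks, and to 12.4% and 13.5% in iWAT. DESeq2 called 1 subunit peak lower and 0 higher in BAT, where it called 0.298% and 0.11% of all peaks, and 1 lower and 0 higher in iWAT, where it called 0.63% and 0.546%. By edgeR 1 BAT subunit peak was lower and 0 were higher, with 0.108% and 0.0273% of all peaks called, and in iWAT 4 were lower and 2 higher, with 2.54% and 2.14%. Limma with a trend called 1 lower and 0 higher in BAT, with 0.0751% and 0.0154% of all peaks, and 3 lower and 2 higher in iWAT, with 2% and 1.64%. The single BAT call of each tool was the Smarcd1 exon 5 peak.

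**Figure D2:**
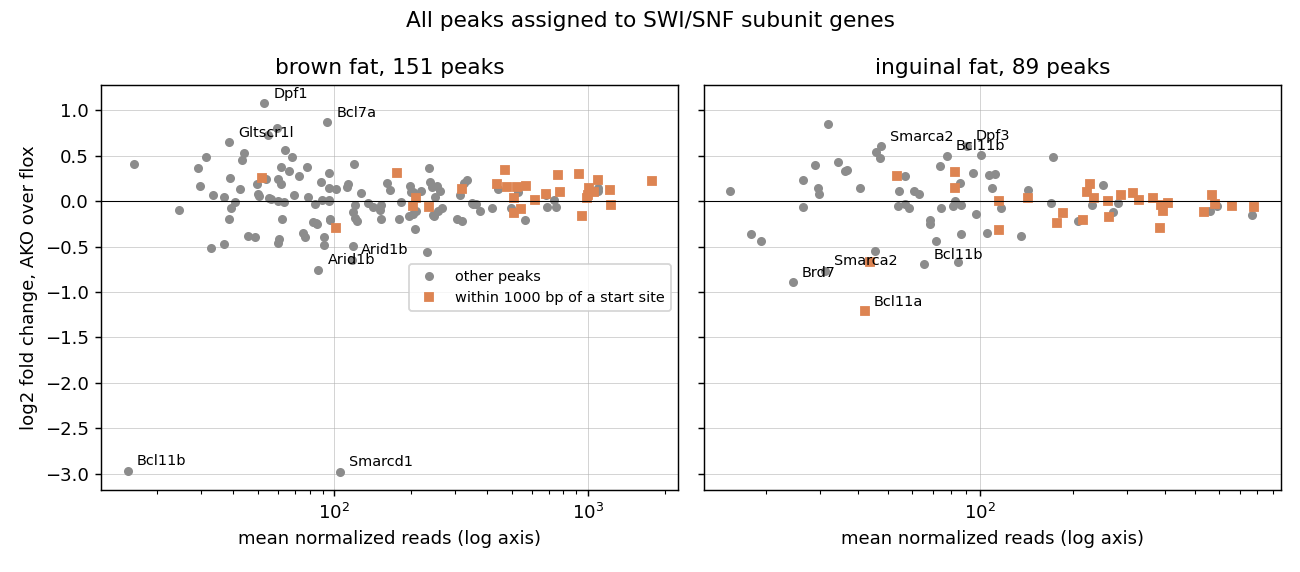
Log2 fold change of AKO over flox against mean normalized reads (log axis) for the 151 BAT and 89 iWAT subunit peaks, with peaks within 1000 bp of a start site as orange squares and all others as gray circles. The Smarcd1 exon 5 peak stands at -2.98. The Bcl11b peak at -2.97 held only 3.66, 12.6 and 25.9 normalized reads in flox and 0, 36.7 and 13.4 in AKO mice. Its groups overlapped and its value was -0.55 without PC1. The start-site peaks lie between -0.30 and 0.35 in BAT and between -1.21, at Bcl11a, and 0.32 in iWAT.

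The median log2 fold change of the subunit peaks was 0.04 in BAT, against 0.01 over all peaks, and -0.01 in iWAT, against 0.00 over all peaks. In BAT the 29 subunit peaks within 1000 bp of a start site had a median of 0.10, equal to within 0.01 to that of all 12563 such peaks, 0.11. Without PC1 both medians were negative, -0.09 for the subunits and -0.05 for all, so the sign of small promoter differences in BAT depends on this covariate. PC1 held 55.6% of the variance of the BAT samples, with scores from -98.2 in flox replicate 1 to 112 in AKO replicate 2. In iWAT the 29 subunit peaks near start sites had a median of -0.02 and all 11881 such peaks a median of 0.00. The 52 genes with peaks of other remodelers and of the Polycomb complex PRC2, from the ISWI, CHD, INO80 and SRCAP families, had a median of 0.04 over 222 BAT peaks, of which 10 were lower and 3 higher at an unadjusted p under 0.05, and of -0.01 over 153 iWAT peaks, of which 6 were lower and 16 higher. Of all peaks, 5.59% were lower and 3.46% higher at this p in BAT, and 7.42% and 7.61% in iWAT.

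The catalytic subunits were open in both genotypes. The main start site of Smarca2 (BRM), which the rule for start-site peaks passed over for an inner start and which was added after its values were seen, held 1043, 1097 and 1044 normalized reads in flox samples and 1160, 946 and 1296 in AKO BAT at chr19:26604571-26607533, a log2 fold change of 0.24 ± 0.20. In iWAT it held 820, 807 and 767 against 752, 731 and 815, a log2 fold change of -0.06 ± 0.12. At the inner start in intron 27, chr19:26747570-26748398, BAT values were 90.9, 103 and 110 against 84.5, 126 and 96.9. The iWAT peak there, chr19:26747897-26748278, held 50.6, 43.4 and 67.1 in flox and 30, 26.3 and 44.9 in AKO aliquots, a log2 fold change of -0.67 ± 0.24 with overlapping groups and a limma p of 0.0269 before and 0.266 after adjustment. Smarca4 (BRG1) held 793, 685 and 691 in flox and 705, 500 and 709 in AKO BAT at chr9:21615601-21616719, a log2 fold change of 0.08 ± 0.19. Its iWAT values, 422, 408 and 405 against 395, 414 and 405 at chr9:21615658-21616676, gave a log2 fold change of -0.02 ± 0.12.

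Away from its start sites, Smarca2 had 2 iWAT peaks among the 6 with the smallest p in their direction. The peak in intron 5, chr19:26646196-26646536, held 42.8, 37.8 and 37.9 normalized reads in flox samples and 24.2, 24 and 20.3 in AKO aliquots, a log2 fold change of -0.77 ± 0.14 (limma p 0.000697, adjusted 0.149). The peak 25 kb upstream, chr19:26579802-26580322, moved the other way, with 45.6, 32.2 and 34.4 against 64.5, 50.2 and 56.7, a log2 fold change of 0.61 ± 0.18 (limma p 0.0104, adjusted 0.203). Groups were clear of each other at both, and neither passed the threshold in any of the 4 tests. Over the 9 Smarca2 peaks in iWAT, the summed reads were 1180 ± 20.1 in flox and 1150 ± 51.9 in AKO.

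No start site of the core genes Smarcb1, Smarcc1, Smarcc2 and Smarce1 passed a test. Smarcb1, which anchors the complex to the nucleosome, held 546, 438 and 423 normalized reads in flox samples and 569, 373 and 483 in AKO BAT at chr10:75920955-75922168. Its log2 fold change of 0.35 ± 0.19 was the highest of the core start sites and became 0.01 without PC1. Smarcc1 (BAF155) held 673, 579 and 517 against 572, 471 and 614 at chr9:110131584-110132583, a log2 fold change of 0.17 ± 0.17. Smarcc2 (BAF170), its paralog, held 993, 878 and 842 against 940, 738 and 1123 at chr10:128458417-128460056, a log2 fold change of 0.30 ± 0.20. Smarce1 (BAF57) held 417, 341 and 260 against 294, 280 and 326 at chr11:99230126-99231051, a log2 fold change of 0.13 ± 0.21. All 4 overlapped between genotypes.

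In iWAT the core start sites were level or slightly lower in AKO. Smarcb1 held 177, 227 and 180 normalized reads in flox samples and 161, 199 and 171 in AKO aliquots at chr10:75921026-75921818, a log2 fold change of -0.13 ± 0.16. Smarcc1 held 331, 339 and 312 against 305, 292 and 401 at chr9:110131591-110132531, a log2 fold change of 0.01 ± 0.16. Smarcc2 held 410, 405 and 409 against 377, 371 and 386 at chr10:128458400-128459784, and the aliquots of the genotypes were clear of each other although the log2 fold change was only -0.11 ± 0.12 (limma p 0.385). Smarce1 held 94.1, 156 and 139 against 98, 97 and 109 at chr11:99230214-99230966, a log2 fold change of -0.32 ± 0.20.

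Among the ATPase module partners, the actin and actin-related subunits Actb, Actl6a and Actl6b, the SS18 paralogs and the BCL7 paralogs, 26 BAT peaks included 0 lower and 1 higher at an unadjusted p under 0.05, and 17 iWAT peaks included 2 lower and 0 higher. Of all peaks, 5.59% were lower and 3.46% higher at this p in BAT, and 7.42% and 7.61% in iWAT. By sign alone 11 BAT values of these partners were negative and 15 positive with PC1, against 15 and 11 without it. Actl6b, known as the neuronal form, had a peak in BAT only, chr5:137553450-137553761, with 24, 44.3 and 46.6 normalized reads in flox and 68, 83.1 and 46.1 in AKO mice. The groups overlapped, and the log2 fold change was 0.25 ± 0.29 with PC1 and 0.78 without. The Bcl7a peak in intron 4, chr5:123362949-123363242, had the second smallest p among higher BAT subunit peaks, with 87.3, 85.7 and 62.1 normalized reads in flox samples and 127, 83.1 and 118 in AKO. Its groups overlapped, and its log2 fold change of 0.87 ± 0.19 (limma p 0.00215, adjusted 0.436) was 0.47 without PC1. No Bcl7c peak was assigned under its own symbol. The peak over the Bcl7c start site, chr7:127708116-127709075, which the deposited table assigns to the microRNA gene Mir762, held 627, 580 and 415 in flox and 547, 576 and 803 in AKO BAT, a log2 fold change of 0.51 ± 0.26.

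**Figure D3:**
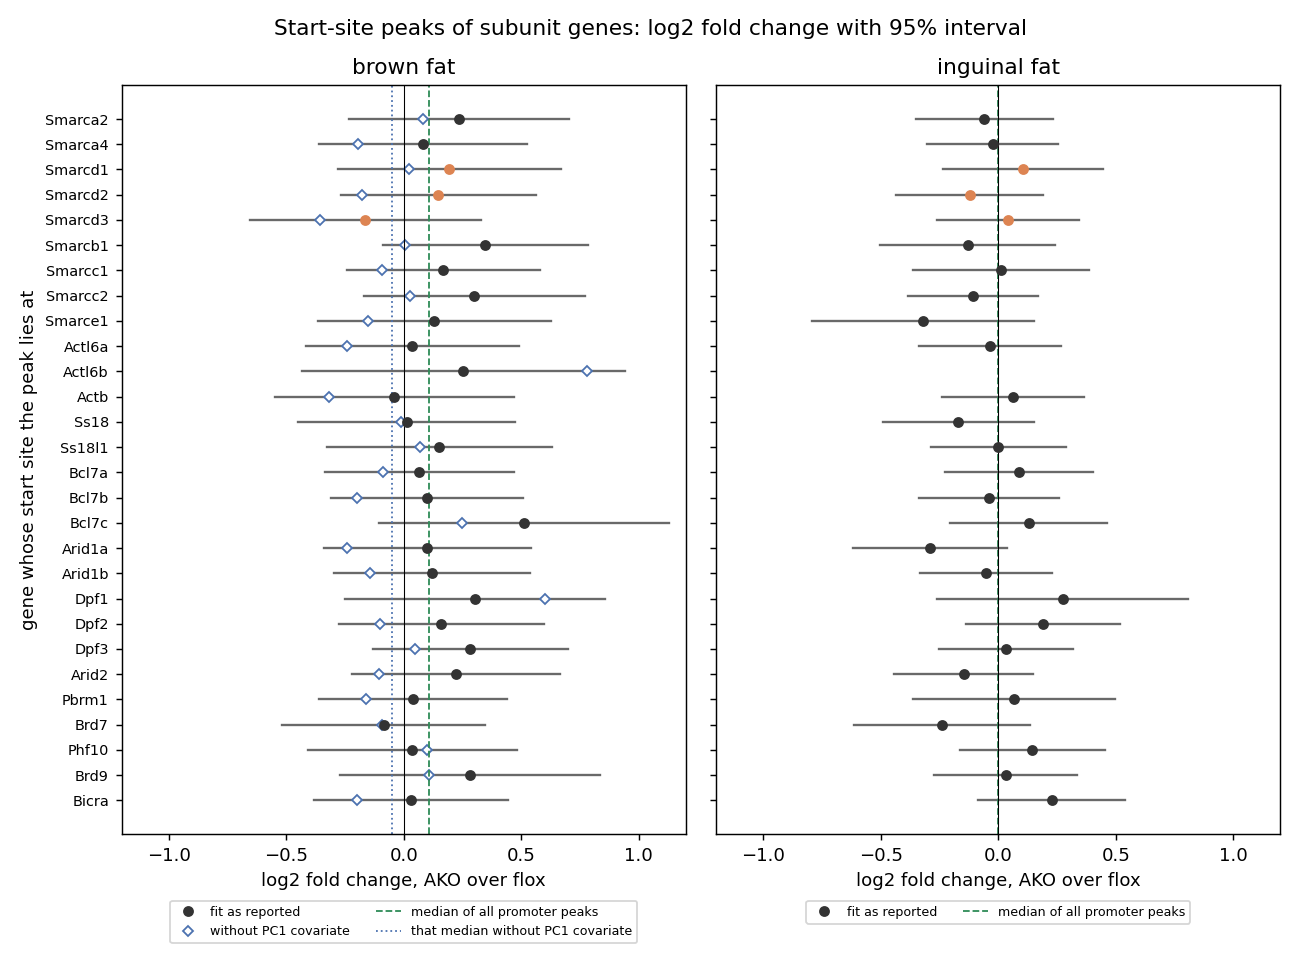
Log2 fold change of AKO over flox (points) with its 95% interval (lines) at the peak over or beside the main start site of subunit genes, BAF60 genes in orange, with open diamonds for the BAT fit without PC1 and dashed and dotted lines for the medians of all promoter peaks. In iWAT the Smarce1, Arid1a and Phf10 peaks lie beside the main start. Bcl11a, Bcl11b and Bicral had no peak over it in either tissue and are not shown. All 28 BAT and 27 iWAT intervals hold 0, and 25 of the 28 BAT values are above 0 with PC1 but only 11 without it.

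The ARID1 proteins, large subunits of cBAF, help to direct it to DNA. Arid1a held 1346, 1042 and 1028 normalized reads in flox samples and 1039, 753 and 1111 in AKO BAT at chr4:133752939-133754819, a log2 fold change of 0.10 ± 0.19. In iWAT the peak chosen by the rule, chr4:133756755-133757710, held 242, 215 and 237 against 174, 199 and 232, a log2 fold change of -0.20 ± 0.15. The iWAT peak nearer to the main start, chr4:133753669-133754711, added after its values were seen, held 444, 392 and 434 against 340, 313 and 387. Its aliquots did not overlap, and its log2 fold change of -0.29 ± 0.14 passed the threshold in edgeR alone (adjusted p 0.0873). Arid1b held 1379, 1298 and 1147 against 1239, 948 and 1296 in BAT at chr17:4993676-4997428, a log2 fold change of 0.12 ± 0.18, and 669, 660 and 689 against 645, 635 and 665 in iWAT at chr17:4993822-4996760, a log2 fold change of -0.05 ± 0.12.

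Arid1b also held more peaks than any other subunit gene, 37 in BAT and 16 in iWAT. Their log2 fold changes ran from -0.76 to 0.56 in BAT and from -0.55 to 0.55 in iWAT. The BAT peaks with the smallest p after the Smarcd1 peak among lower ones were both in its intron 4. The first, chr17:5162583-5163558, held 98.2, 141 and 142 normalized reads in flox samples and 89.7, 137 and 98.8 in AKO, and the second, chr17:5203553-5203972, held 72.6, 73.9 and 113 against 60.8, 137 and 63.3. Groups overlapped at both, and the log2 fold changes of -0.64 ± 0.19 and -0.76 ± 0.23 fell to -0.23 and -0.06 without PC1. Summed over the gene, BAT reads were 8215 ± 359 in flox and 7745 ± 448 in AKO.

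The DPF genes, whose products read acetylated histone tails, held the subunit peak with the smallest p among higher BAT peaks. At chr7:29354294-29354480, 50 kb downstream of the Dpf1 start and inside the neighboring gene Sipa1l3, the flox mice held 27.2, 28.1 and 33.6 normalized reads and the AKO mice 59.8, 86.9 and 82.5. Every AKO mouse lay above every flox mouse, 76.4 ± 14.6 against 29.6 ± 3.5 (SD, n = 3 each). The log2 fold change was 1.08 ± 0.21 with PC1 (limma p 0.00132, adjusted 0.417) and 1.33 without. DESeq2 with PC1 gave no adjusted p for this peak, and DESeq2 without PC1, an alternative added after the values were seen, called it higher (adjusted p 0.0303), where it called 0.512% of all peaks higher and 0.517% lower. The peak lies 13431 bp from the nearest protein-coding start site, that of Sipa1l3, so that its link to Dpf1 is the assignment of the deposited table. The iWAT peak at the same place, chr7:29354296-29354488, held 36.4, 31.1 and 28.4 against 41.5, 37.7 and 41.7, also clear of each other, with a log2 fold change of 0.33 ± 0.14 (limma p 0.0524). The Dpf1 start site in BAT, chr7:29303778-29304741, held 111, 126 and 190 against 208, 218 and 204, a log2 fold change of 0.31 ± 0.23 with PC1 and 0.60 without.

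Dpf3 gave the subunit peak with the smallest p among higher iWAT peaks. In its intron 1, chr12:83411736-83412539, the flox aliquots held 77, 70 and 66.3 normalized reads and the AKO aliquots 96.8, 121 and 110, which did not overlap. The log2 fold change of 0.61 ± 0.14 did not pass in limma (adjusted p 0.163) or DESeq2 (0.145) and passed in edgeR (0.056) and limma with a trend (0.0645). The overlapping BAT peak had a log2 fold change of 0.21 with groups clear of each other. Summed by gene in iWAT, Dpf1 held 182 ± 3.4 normalized reads in flox samples and 221 ± 16.8 in AKO, Dpf2 213 ± 20.5 and 243 ± 19.3, and Dpf3 430 ± 21.9 and 503 ± 8.62. All 3 sums were clear of each other between genotypes and higher in AKO, as were those of 10.6% of all genes, with limma adjusted p-values of 0.242, 0.457 and 0.276 over all genes. The Dpf2 sum rests on 1 peak, and that of Dpf1 includes the peak inside Sipa1l3. Other subunit genes went the opposite way. The iWAT sums of Smarcc2, Arid1b, Arid2 and Brd7 were also clear of each other and lower in AKO. For Brd7 the log2 fold change was -0.31 ± 0.11 (limma p 0.0201, adjusted 0.257).

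Bcl11a and Bcl11b, zinc-finger proteins that join BAF complexes in blood and brain, included the iWAT subunit peak with the smallest p. The Bcl11a peak in intron 1, chr11:24080903-24081240, whose sequence is given above, lies 401 bp from a start site of the gene and 2898 bp from the main one. It held 55.6, 63.4 and 57.7 normalized reads in flox samples and 19.6, 25.1 and 31 in AKO aliquots, or 58.9 ± 4.03 against 25.2 ± 5.71 (SD, n = 3 each), clear of each other. The log2 fold change was -1.21 ± 0.18 (limma adjusted p 0.149), and DESeq2 (adjusted p 0.0311), edgeR (0.00802) and limma with a trend (0.0144) called it lower. With an aliquot left out, DESeq2 kept the call in 0 of 6 fits, 1 of which gave no adjusted p, while the limma log2 fold change stayed between -1.37 and -1.05. In BAT a wider peak at the same place, chr11:24080794-24082085, held 200, 171 and 186 against 168, 299 and 200, a log2 fold change of -0.06 ± 0.26.

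Bcl11b peaks went both ways in iWAT. The peak 84 kb upstream, chr12:108087547-108088292, held 72.7, 70 and 102 normalized reads in flox samples and 42.6, 59.4 and 47 in AKO aliquots, a log2 fold change of -0.69 ± 0.20 (adjusted p 0.197 in limma, 0.0614 in edgeR). Limma with a trend also called it lower, and DESeq2 did not. The peak in intron 3, chr12:107961162-107961448, held 54.9, 72.3 and 65.4 against 98, 93.6 and 81.3, a log2 fold change of 0.50 ± 0.16 (limma adjusted p 0.219). Both genes are known from lymphocytes. Summed reads at 7 lymphocyte marker peaks were 502 to 567 in flox and 465 to 485 in AKO iWAT. At an unadjusted p under 0.05, 3 of these peaks were lower and 2 higher, against 7.42% and 7.61% of all iWAT peaks. No peak was assigned to Cd3e, Cd79a, Cd8a or Ms4a1. Summed reads at 13 endothelial marker peaks were 787 to 888 in flox and 693 to 762 in AKO iWAT, with 2 peaks lower and 1 higher at that p. No peak was assigned to Emcn or Tie1. The iWAT sums overlapped between genotypes for the markers of adipocytes (5226 to 6417 in flox, 5129 to 5865 in AKO) and brown adipocytes. They also overlapped for those of macrophages, progenitors, Schwann cells or neurons, and skeletal muscle. The part of any of these cells in the Bcl11a and Bcl11b values was not tested.

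**Figure D4:**
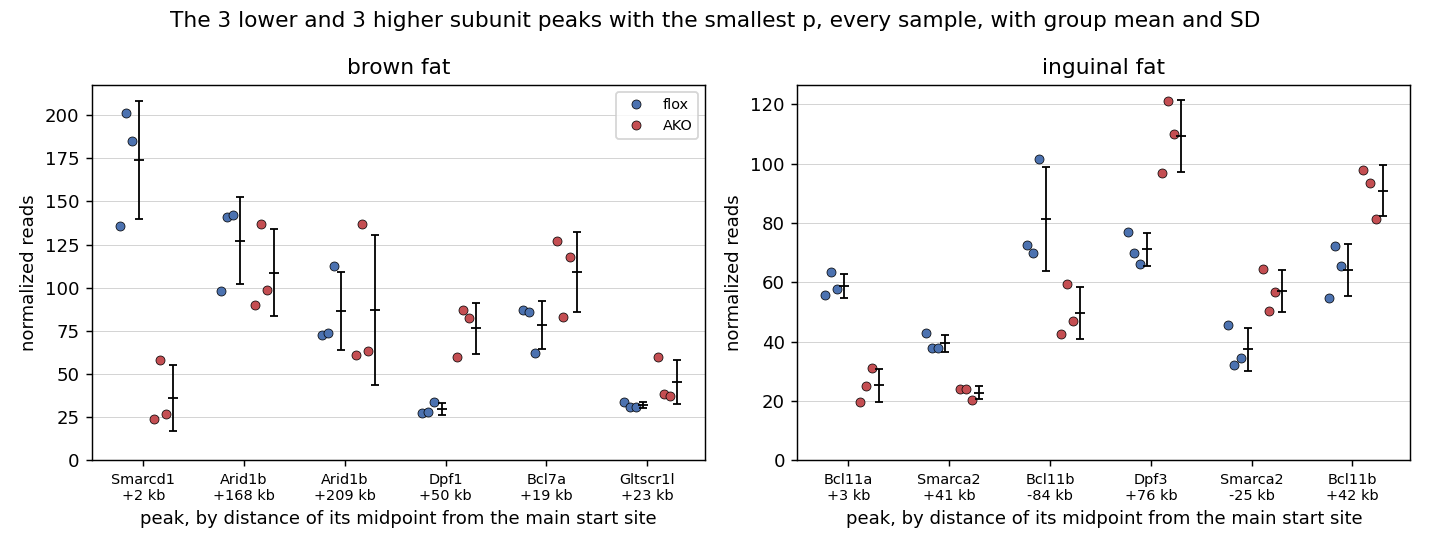
Normalized reads in every sample at the 3 lower and 3 higher subunit peaks with the smallest limma p in each tissue, flox in blue and AKO in red, with bars for the mean and SD of 3 samples. The genotypes are clear of each other at Smarcd1, Dpf1 and Gltscr1l in BAT and at all 6 iWAT peaks, and overlap at the Arid1b and Bcl7a peaks.

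The PBAF start sites gave small differences. Arid2, which takes the place of ARID1 in PBAF, held 2132, 1673 and 1715 normalized reads in flox samples and 1933, 1338 and 1905 in AKO BAT at chr15:96284823-96288394, a log2 fold change of 0.22 ± 0.19. In iWAT the Arid2 peak, chr15:96285005-96287661, held 868, 808 and 744 against 737, 725 and 717, with every AKO aliquot below every flox aliquot and a log2 fold change of -0.15 ± 0.13 (limma p 0.28). Pbrm1, a subunit with several bromodomains, held 589, 534 and 488 against 504, 427 and 513 in BAT at chr14:31018732-31019631, a log2 fold change of 0.04 ± 0.17. In iWAT, Pbrm1 held 269, 328 and 243 against 239, 313 and 329 at chr14:31018836-31019599, a log2 fold change of 0.07 ± 0.18. The bromodomain gene Brd7 held 586, 528 and 564 against 490, 525 and 559 in BAT at chr8:88361299-88363188, a log2 fold change of -0.08 ± 0.18. Its iWAT peak, chr8:88361598-88362452, held 214, 171 and 193 against 142, 187 and 160, a log2 fold change of -0.24 ± 0.16. None of these start sites was called by limma in either tissue. A weak iWAT peak 33 kb downstream of the Brd7 start, chr8:88328871-88329070, held 24.9, 33.4 and 37 normalized reads in flox and 24.2, 11.4 and 16 in AKO aliquots. Groups were apart there by less than 1 normalized read, with a log2 fold change of -0.89 ± 0.27 (limma p 0.0133, adjusted 0.218). Neither edgeR nor limma with a trend called it, and DESeq2 gave no adjusted p. Phf10, the plant homeodomain subunit, had the lowest start-site level per kilobase of the iWAT set, 67.3 ± 3.26 normalized reads in flox.

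Brd9, the bromodomain subunit that marks ncBAF, shares its start-site peak with Trip13, to which the deposited tables assign it, so that its reads cannot be given to either gene. That peak, chr13:73937221-73938170, held 352, 300 and 225 normalized reads in flox samples and 298, 324 and 308 in AKO BAT, a log2 fold change of 0.28 ± 0.23. In iWAT, at chr13:73937192-73938182, it held 200, 211 and 190 against 220, 190 and 205, a log2 fold change of 0.03 ± 0.13. The 5′ end of Bicra lay under a peak assigned to Zfp541, with a log2 fold change of 0.03 ± 0.17 in BAT and 0.23 ± 0.13 in iWAT. Bicral, listed in the tables as Gltscr1l, had the third smallest p among higher BAT subunit peaks in its intron 8, chr17:46808073-46808232. That peak held 34, 31 and 31 in flox and 59.8, 38.6 and 37.4 in AKO, a log2 fold change of 0.65 ± 0.25 (limma p 0.0367, adjusted 0.534). Genotypes were clear of each other at all 4 Gltscr1l peaks in BAT, 3 lower and 1 higher in AKO. Of all BAT peaks, 8.84% and 8.77% behaved so. Summed over the gene, BAT reads were 1645 ± 229 in flox and 1311 ± 85.3 in AKO, a log2 fold change of -0.11 ± 0.12.

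Tests other than limma called 1 iWAT peak of each BICRA paralog. The Gltscr1l peak chr17:46852892-46853607 lies inside the gene, 22 kb upstream of its main start. It held 101, 101 and 106 normalized reads in flox and 47.3, 85.6 and 65.2 in AKO aliquots, with every AKO aliquot below every flox aliquot. Its log2 fold change was -0.67 ± 0.22 (adjusted p 0.226 in limma, 0.189 in DESeq2, 0.0625 in edgeR and 0.0623 in limma with a trend). The Gltscr1 (Bicra) peak in intron 1, chr7:16028528-16029085, held 177, 106 and 154 against 217, 188 and 197, with every AKO aliquot above every flox aliquot. Its log2 fold change was 0.49 ± 0.20 (adjusted p 0.321 in limma, 0.239 in DESeq2, 0.0741 in edgeR and 0.0645 in limma with a trend). Both peaks, like that beside the main Arid1a start and that of Brd7, were added after their values were seen.

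Of the subunit peaks, 77 pairs overlapped by at least 1 bp between the tables, which made up 51.0% of the BAT and 86.5% of the iWAT subunit peaks. The genotypes were clear of each other and higher in AKO in both tissues at 3 pairs, those of Dpf1 in intron 1 and 50 kb downstream and of Dpf3 in intron 1. Over all 31936 overlapping pairs 1.2% were apart and higher in both, 1.05% lower in both and 1.47% opposite. The subunit pairs were lower in both at 1, a peak 26 kb upstream of the main Gltscr1l start, and opposite at 1, also of Gltscr1l. The former lies inside the gene, whose 5′ end the BAT peak covers. The tables were normalized separately, the animals and sampling differed, and cold acclimation is stated for the iWAT mice only. No test was therefore made between tissues.

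**Figure D5:**
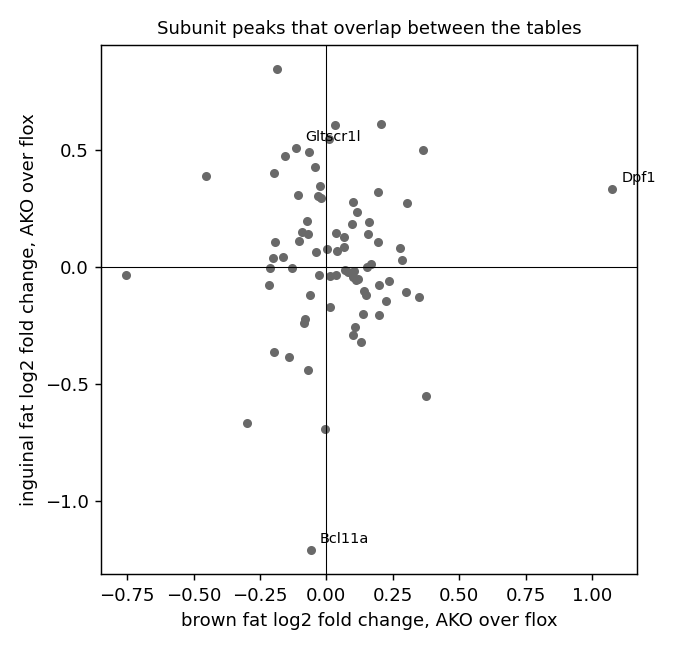
Log2 fold change of AKO over flox in iWAT against that in BAT for the 77 pairs of subunit peaks that overlap between the tables. The Dpf1 pair 50 kb downstream is at 1.08 and 0.33, the Bcl11a pair at -0.06 and -1.21, and the Gltscr1l pair with opposite values at -0.11 and 0.51.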

How the data were processed

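ATAC-seq libraries of 3 flox and 3 AKO samples per tissue were compared within each tissue. Per the study's methods, the authors trimmed adapters, mapped 38-bp read pairs to mm10 with BWA 0.7.17-r1188, kept autosomal pairs with a mapping quality of at least 30 after Picard 2.8.14 had marked duplicates, and called broad peaks with MACS2 2.1.1.20160309. Products of 2 transposase reactions were merged per sample, each with 50000 nuclei per the labels and 5000 per the methods. The deposited signal is the number of reads per peak, scaled by the authors with 1 size factor per sample. The tables also hold the authors' DESeq2 fold changes and p-values, which were not used. Only the inguinal table is named in the labels, and the other was taken as brown fat by elimination.

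Dividing by the smallest step recovered whole reads for 100% of the values within 0.001. The median peak held 70 to 226 reads in BAT and 62 to 98 in iWAT samples, which limits the precision at weak peaks. Each table was fitted whole with lmFit and eBayes of limma 3.58.1 (R 4.3.3) on log2(normalized reads + 1), so that fold changes of low peaks are understated, with PC1 as a covariate in BAT only, as in the study, with Benjamini-Hochberg adjustment over all peaks and a threshold of 0.1. DESeq2 1.42.0 and edgeR 4.0.16 on the recovered reads, other normalizations (total reads, TMM, cyclic loess), pseudocounts of 0.1 and 10, filters of at least 10 reads in every sample or a mean of 50, each sample left out, a replicate block, and fits with or without PC1 were alternatives. The code was tested on simulated data. With 3 against 3 samples an exact permutation test cannot go below 0.1.

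The members, gene lists and alternatives were chosen with earlier results of these data known. All peaks of Smarcd1, Smarcd2 and Smarcd3, start-site peaks of 12 further subunits and the 3 subunit peaks of lowest p in each tissue and direction are given in full. Start-site peaks lie within 1000 bp of a start, by the deposited distance in BAT and by the midpoint's distance to a GENCODE vM21 start in iWAT. Of the BAT peaks within 1000 bp by the deposited distance, 98.9% were so by GENCODE. Coordinates are 1-based. Replicates differed by more than sampling noise, and every column of values was used. Figures were drawn with matplotlib 3.10.9.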

Additional observations from a re-analysis of the deposited data

Results flagged for a closer look

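At a peak of Gltscr1l (Bicral) all AKO samples lay below all flox samples in BAT and above them in iWAT. The BAT peak, chr17:46809048-46810173, has its midpoint in exon 7 and had a log2 fold change of -0.11 (limma p 0.53). The iWAT peak within it, chr17:46809099-46809458, had a log2 fold change of 0.51 (limma p 0.0249, adjusted 0.262). The difference between the tissues was not tested, since the tables were normalized separately and tissue and pooling differ together. Cold acclimation is stated for the iWAT mice only.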

How the results depend on the processing

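The call of the Smarcd1 exon 5 peak rests on the test. Limma called 0 subunit peaks lower in BAT, and 1 was called with a pseudocount of 10, limma with a trend, DESeq2, edgeR and DESeq2 without PC1. The last also called 1 higher. In iWAT limma called 0 and limma with a trend 3, DESeq2 1 and edgeR 4 lower, while 1 was higher when only peaks averaging 50 or more were kept, 2 by limma with a trend and 2 by edgeR. With any 1 sample left out limma called 0. Over all BAT peaks, lower and higher, DESeq2 called 127 and 47, edgeR 63 and 16, limma with a trend 44 and 9 and DESeq2 without PC1 303 and 300. Over all iWAT peaks, DESeq2 called 225 and 195, edgeR 1006 and 846, limma with a trend 792 and 648, and limma on peaks averaging 50 or more called 134 and 180.

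The replicate numbers did not pair the samples, with correlations of 0.49, 0.06 and -0.24 between same-numbered BAT samples and of -0.04, -0.05 and -0.06 in iWAT. With the replicate block the median log2 fold change of the BAT subunit peaks was 0.083. It was 0.0097 without PC1, 0.069 for reads summed by gene, 0.10 for promoter peaks, and 0.014 to 0.082 with 1 sample left out. The iWAT median was -0.030 for peaks averaging at least 50, 0.084 with PC1, -0.0010 in DESeq2, -0.00031 in edgeR, -0.026 for reads summed by gene, -0.024 for promoter peaks, and -0.018 to 0.016 with 1 aliquot left out.

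Without PC1 the BAT log2 fold changes of 9 peaks turned negative, at Smarcd2 (-0.18, start site), Smarcd3 (-0.20, upstream), Smarca4 (-0.19), Arid1a (-0.24), Arid1b (-0.14), Arid2 (-0.10), Pbrm1 (-0.16), Smarcc1 (-0.094) and Smarce1 (-0.15). Pbrm1 also did with cyclic loess (-0.013). PC1 in iWAT separates the genotypes completely, and as a covariate it turned 10 values, at Smarcd2 (0.78), Smarcd3 (0.060), Smarca2 (0.95), Smarca4 (0.22), Brd7 (0.64), Arid1a (1.28), Arid1b (0.065), Smarcc2 (0.084), Bcl11a (0.016) and Bcl11b (-1.59). The inner Smarcd2 peak in iWAT was 0.0022 after scaling to total reads. Leaving out 1 sample turned the sign at the inner Smarcd2 peak in BAT (-0.29 to 0.069) and iWAT (-0.069 to 0.031), at Smarcd3 in BAT (-0.33 to 0.016) and iWAT (-0.022 to 0.087), at Brd7 (-0.16 to 0.027) and Smarce1 (-0.12 to 0.32) in BAT, and at Pbrm1 (-0.030 to 0.21) and Smarcc1 (-0.13 to 0.098) in iWAT. None of these passed the threshold in limma, and apart from the PC1 fits the causes were not tested. Of the 44 named peaks, 18 kept their sign under every alternative run, including Smarcd1 at exon 5 and Dpf1 50 kb downstream. Low read numbers limit the weak peaks, and the 3 iWAT aliquots say nothing of the spread between mice.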
